A study of Mus musculus with 10 samples.

Results

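The genes described here are the 10 that encode the mouse MHC class II antigen presentation machinery and its master regulator, chosen by name from the 31053 genes of each expression table. H2-Aa and H2-Ab1 encode the alpha and beta chains of the classical molecule H2-A, and H2-Eb1 encodes the beta chain of the classical molecule H2-E. Cd74 encodes the invariant chain, which fills the peptide groove and sorts new class II molecules to endosomes. H2-DMa, H2-DMb1 and H2-DMb2 encode the chains of H2-DM, which exchanges the invariant chain remnant for antigenic peptide, and H2-Oa and H2-Ob encode H2-DO, which restrains H2-DM. Ciita encodes the coactivator on which transcription of the family depends.

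Class II molecules on B cells, dendritic cells and macrophages show peptides to CD4 T cells. In a germinal centre (GC), B cells divide and mutate their antibody genes in the dark zone, then present captured antigen to follicular helper T cells in the light zone. Plasma cells are known to shut Ciita off through the repressor encoded by Prdm1, and conventional T cells of the mouse are known to make little or no class II.

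Spleen cells came from BXD2 mice, a recombinant inbred strain that forms germinal centres spontaneously and makes autoantibodies. The samples were 3 BXD2-p19-/- mice, in which Il23a, the gene for the p19 chain of interleukin 23 (IL-23), is deleted (mice 1 and 2 female, mouse 3 male), and 2 BXD2-WT mice, both female. All 5 were on the BXD2 background, and their age was not stated. Each spleen gave 1 droplet library of RNA captured at the 5' end of transcripts and 1 library of B cell receptor sequences, labelled as B cells and T cells, although the design text of the study speaks of GC B cells. The only male mouse is a p19-/- mouse, so sex is partly confounded with genotype.

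The 5 RNA tables held 11355 cell barcodes and 69958493 unique molecular identifiers (UMIs, 1 per captured transcript), between 7712457 and 18093053 UMIs per library. After cell filtering 9200 cells remained, 944 to 2729 per mouse, with a median of 3883 to 5224 UMIs per cell, and library pairs shared between 1 and 8 barcodes. Il23a, the gene for p19, had 0 UMIs in all 5 libraries, the WT ones included, which allows at most 0.166 to 0.389 UMIs per 1000000, so it could not check the genotype labels. Cells were clustered without the 10 genes and without their known partners, and clusters were named from marker genes, none of which is a class II gene. This gave 2987 GC B-like, 615 mature non-GC B-like, 281 plasma cell-like, 109 dendritic cell-like, 349 macrophage or monocyte-like, 3521 CD4 T-like and 255 CD8 T-like cells, and 394 B cells that no marker list named. The dendritic cell-like cells had Flt3, Xcr1 and Batf3 at means of 150, 48.1 and 222 CPM (UMIs per 1000000 non-immunoglobulin UMIs), but also the myeloid gene Lyz2 at 783 CPM. Plasma cell-like cells had the plasma cell genes Prdm1 at 192 CPM and Xbp1 at 2064 CPM, with 38.4% of their UMIs from immunoglobulin genes, which were left out of all CPM values.

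Of the 10 genes, 8 lie on chromosome 17 in the MHC, and Ciita lies on chromosome 16. In mm10, the build of the tables, H2-Oa (chr17:34092379-34095234), H2-DMa (chr17:34119693-34139101), H2-DMb2 (chr17:34143229-34151553), H2-DMb1 (chr17:34153191-34160229), H2-Ob (chr17:34238905-34245908), H2-Ab1 (chr17:34263227-34269418), H2-Aa (chr17:34282744-34287823) and H2-Eb1 (chr17:34305867-34316674) follow each other in this order. Ciita spans chr16:10480014-10531064. H2-DMb1 and H2-DMb2 are near-identical neighbours, and how reads shared by both were counted is not given in the sources used here, so the split of counts between them is uncertain. Differences between the MHC haplotype of BXD2 mice and the mm10 reference were not tested.

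Class II promoters are known for a shared module, in which an X box bound by RFX and CREB family proteins precedes a Y box bound by NF-Y, and Ciita docks on the assembled proteins. Promoter windows of the family members with a Y-like motif near the start are shown because they hold parts of this module. They are from RefSeq promoters of GRCm38.p6 (the reference assembly behind mm10) and are written 5' to 3' on the strand of the gene. Capitals mark the Y-like motif GATTGG, the X-like motif CNNATGATG and the CREB-type motif TGACGTCA.
H2-Aa: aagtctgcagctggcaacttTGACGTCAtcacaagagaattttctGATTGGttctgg
H2-Eb1: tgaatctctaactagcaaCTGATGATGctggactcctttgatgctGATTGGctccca
H2-DMb1: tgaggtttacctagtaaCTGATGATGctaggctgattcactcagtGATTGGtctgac
H2-DMb2: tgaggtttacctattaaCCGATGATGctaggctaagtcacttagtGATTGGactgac
H2-Oa: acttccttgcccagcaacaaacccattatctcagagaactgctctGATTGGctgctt
H2-Ob: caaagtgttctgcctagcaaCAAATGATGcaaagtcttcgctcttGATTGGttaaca

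These windows lie at chr17:34287861-34287917 on the minus strand for H2-Aa and on the plus strand for the others, at chr17:34305762-34305818 for H2-Eb1, chr17:34153084-34153140 for H2-DMb1, chr17:34145113-34145169 for H2-DMb2, chr17:34092290-34092346 for H2-Oa and chr17:34238802-34238858 for H2-Ob. The Y-like motif began 44 to 62 bases before the annotated start in 5 of them, where that start is the outer end of the span given above. For H2-DMb2 it began 91 bases before the start of the promoter entry, which lies inside the span given above and not at its end. The letters were chosen after these promoters had been read, so their presence in the members is a description. Searched on both strands, GATTGG occurred in 16.1% of 32851 promoters of 300 bases, CNNATGATG in 2.75% and TGACGTCA in 1.79%. The X-like motif followed after 8 to 30 bases by GATTGG occurred in 6 promoter entries (0.0183%), those of H2-Eb1, H2-DMb1, H2-DMb2 and H2-Ob and those of Plekhh3. In these 4 members the gap was 16 to 19 bases. The windows of H2-Aa and H2-Oa had no X-like match. Of the 2 promoter entries for H2-DMa, 1 had GATTGG 199 bases before the start and the other had none. H2-Ab1 and Ciita had no entry among these promoters, and Cd74 is not shown.

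Taken as one family, the 10 genes made up the largest share of non-immunoglobulin UMIs in dendritic cell-like cells and the smallest in CD8 T-like cells. Their summed share was 5.69% ± 1.43 (SD, n = 4 mice) in dendritic cell-like cells, 3.76% ± 0.162 (n = 5) in mature non-GC B-like cells, 2.94% ± 0.446 (n = 5) in plasma cell-like cells and 2.29% ± 0.128 (n = 5) in GC B-like cells. It was 0.505% ± 0.0784 (n = 5) in macrophage or monocyte-like cells, 0.0799% ± 0.0263 (n = 5) in CD4 T-like cells and 0.0418% ± 0.0194 (n = 5) in CD8 T-like cells. Dendritic cell-like mice ranged from 3.70% to 6.88% and overlapped the mature non-GC B-like range of 3.56% to 3.94%, and plasma cell-like mice (2.17% to 3.31%) overlapped GC B-like mice (2.14% to 2.44%). The other neighbouring classes in this order did not overlap, apart from CD4 and CD8 T-like cells (0.0536% to 0.119% and 0.0161% to 0.0622%). Dendritic values leave out p19-/- mouse 3, which had 8 such cells. Immunoglobulin genes, left out of these shares, gave 38.4% of plasma cell-like and 1.30% of GC B-like UMIs. The order of plasma cell-like and GC B-like cells is therefore given for non-immunoglobulin UMIs only. Cd74, the only member on chromosome 18, was the most abundant and gave 64.3% of all member UMIs in GC B-like cells.

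**Figure D1:**
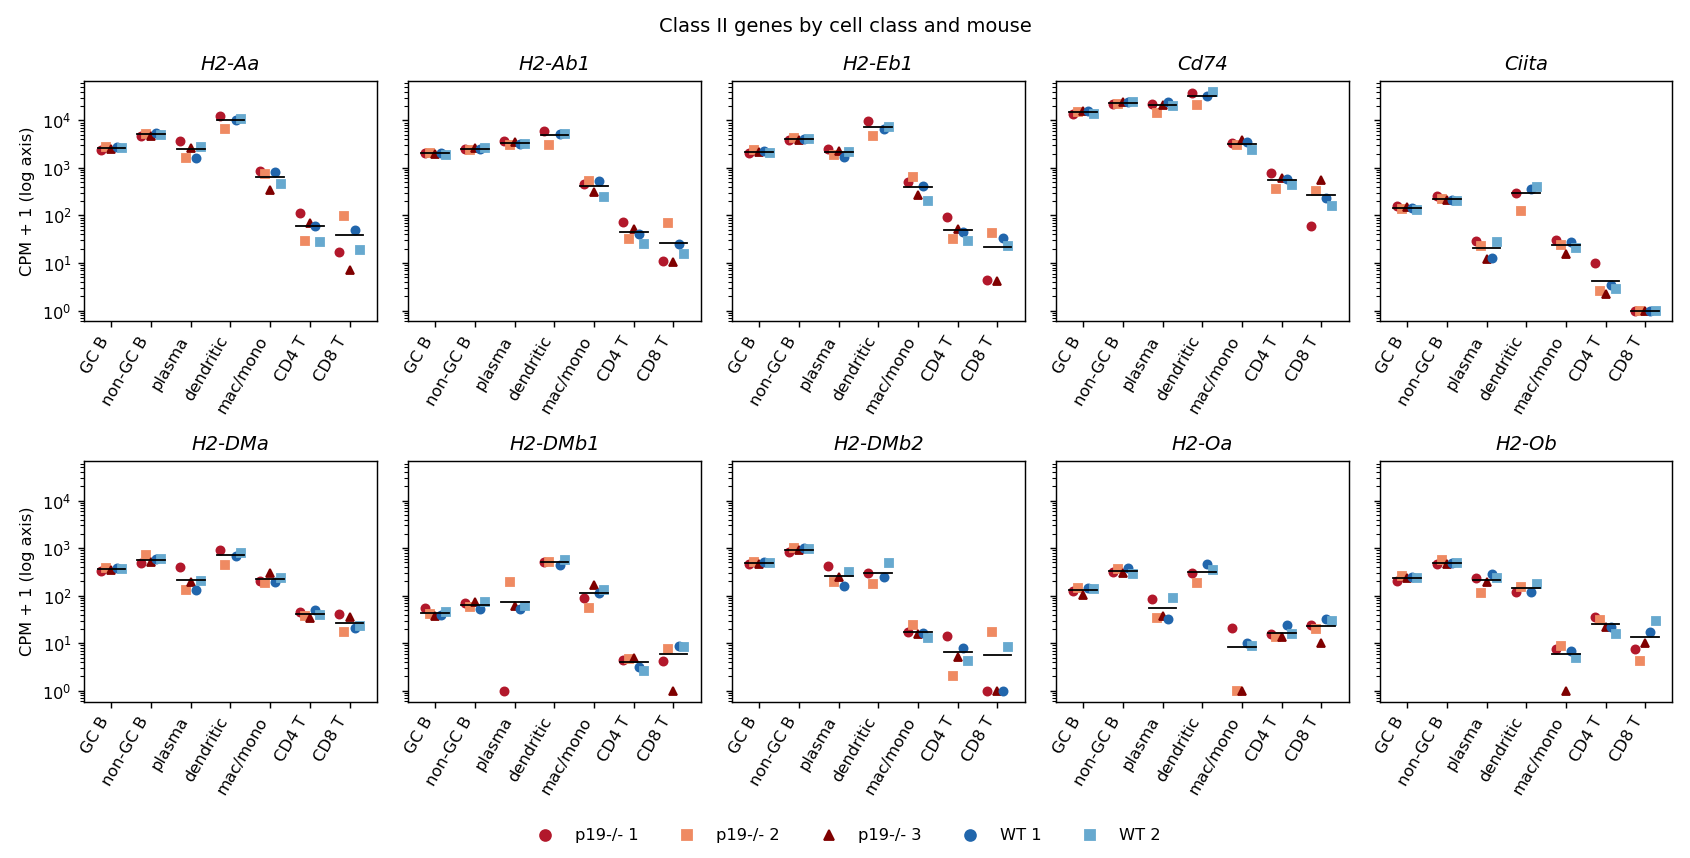
Level of each of the 10 genes by cell class, in CPM plus 1 on a log axis, with 1 point per mouse and the mean over mice as a bar (dendritic cell-like cells of p19-/- mouse 3 left out). All 10 genes were lower in CD4 T-like than in GC B-like cells in every mouse, and Ciita was also low in plasma cell-like cells, where Cd74 and H2-Ab1 were not.

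Within the germinal centre, the class II genes were higher toward the light zone. GC B-like cells of each mouse were ranked by a dark minus light zone score that contains no class II gene, and the tertile of cells at each end (994 cells at the light and 994 at the dark end in all) was summed per mouse. Ciita was at 120, 90.4 and 105 CPM in the dark ends of p19-/- mice 1 to 3 and at 92.4 and 89.7 CPM in WT mice 1 and 2. At the light ends it was at 205, 208 and 229 CPM in p19-/- mice and at 224 and 197 CPM in WT mice. No light value overlapped a dark value, and the middle tertile lay between them in all 5 mice, at 139 ± 15.0 CPM (SD, n = 5).

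Differences between classes are given from here on as log2 fold changes ± SE. That of Ciita was 1.08 ± 0.07 (2.11-fold, adjusted p = 1.07e-15, edgeR's quasi-likelihood test with mouse as a block and Benjamini-Hochberg adjustment over all genes). Among the H2-DM genes, H2-DMb2 rose by 0.76 ± 0.05 (adjusted p = 4.7e-15, edgeR) and H2-DMa by 0.72 ± 0.06 (adjusted p = 1.44e-12). H2-DMb2 was at 330 to 401 CPM in the dark ends and 611 to 750 CPM in the light ends, again without overlap. H2-Oa rose by 0.69 ± 0.07 (adjusted p = 1.3e-10).

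The classical chains and Cd74 changed less than Ciita did. H2-Aa was at 2188, 2555 and 2149 CPM in the dark ends of p19-/- mice and at 2443 and 2420 CPM in those of WT mice. Its light ends were at 2655, 3809 and 3305 CPM in p19-/- mice and at 3931 and 3171 CPM in WT mice, a rise of 0.47 ± 0.04 (adjusted p = 2.53e-11, edgeR). H2-Ab1 rose by 0.48 ± 0.04, H2-Eb1 by 0.52 ± 0.04 and Cd74 by 0.52 ± 0.04 (1.44-fold for Cd74, adjusted p = 3.02e-14, edgeR). H2-DMb1 rose by 0.41 ± 0.10 (adjusted p = 0.000842, edgeR).

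In all, 9 of the 10 genes were higher at the light end, beside 19.8% of the 8569 genes tested (40% were called in either direction). Each of the 9 was higher in the light end of all 5 mice. H2-Ob, the beta chain of H2-DO, was the exception, at 239 ± 23.1 CPM in the dark and 265 ± 45 CPM in the light ends (0.12 ± 0.06, adjusted p = 0.103, edgeR), with the lowest mean, 203 CPM, in the middle tertile. Its sign depended on the score: with cell cycle genes left out of the dark zone score it was lower at the light end, at −0.55 ± 0.06 (adjusted p = 8.62e-10, edgeR), whereas the other 9 genes were higher there too, by 0.18 to 0.48. In that setting Ciita rose by 0.44 ± 0.07 only. Without p19-/- mouse 1, in which H2-Ob was lower in the light end, at −0.12, its difference was 0.16 (adjusted p = 0.021, edgeR), and with a mitochondrial limit of 20% it was 0.24 (adjusted p = 0.00269), so that it was then called higher. Median UMIs per cell moved with the zones, from 10704 to 17923 in the dark ends to 5852 to 10764 in the light ends, while thinning each cell to 2000 UMIs left the same 9 genes called, at 0.54 (H2-Eb1) to 1.06 (Ciita), and H2-Ob not called, at 0.08 (adjusted p = 0.624, edgeR). After thinning each cell to 2000 UMIs, 38.2% ± 2.65 of light-end and 20.02% ± 5.27 of dark-end cells had a Ciita UMI (SD, n = 5 mice).

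**Figure D2:**
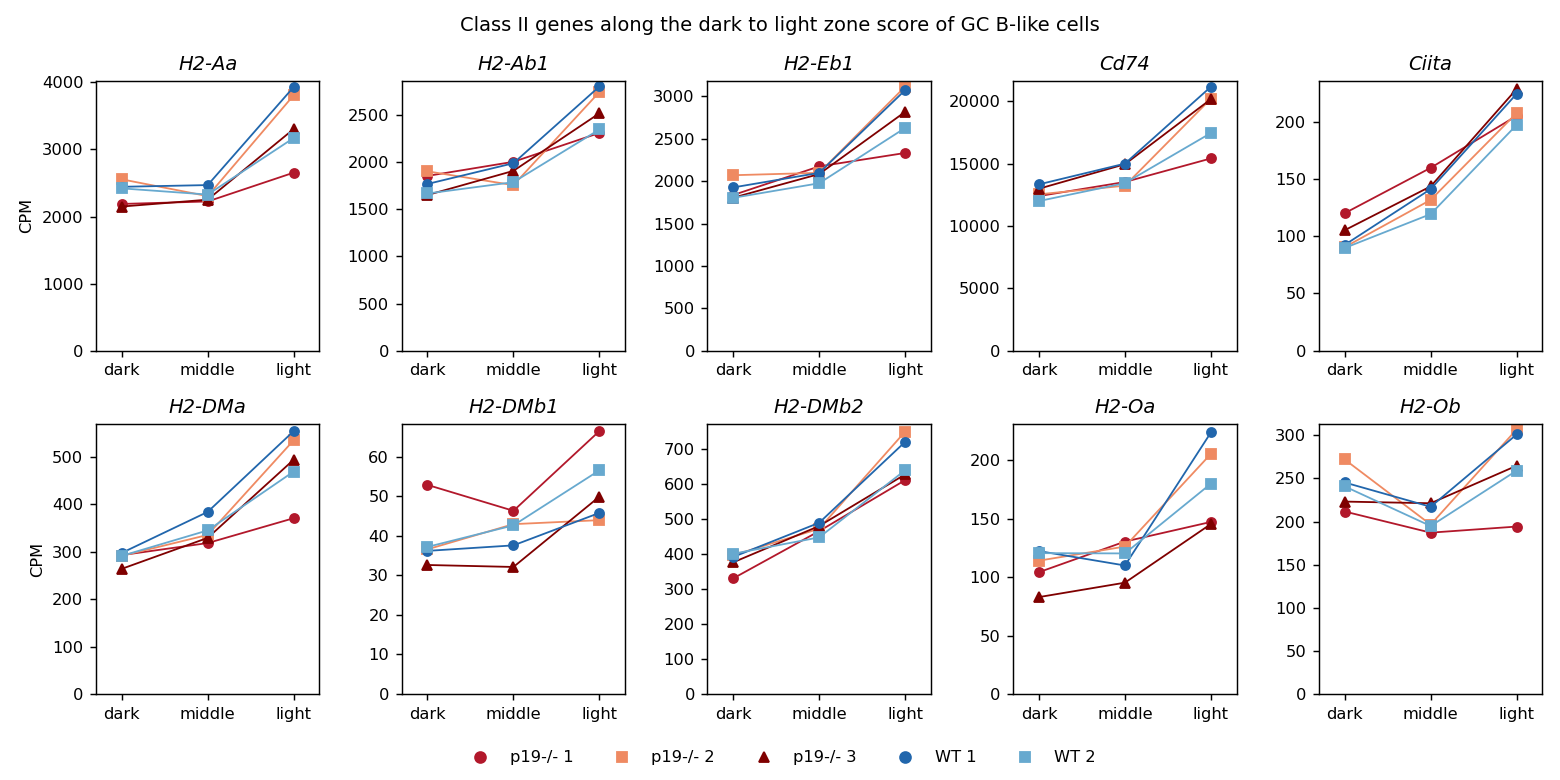
Level in CPM (axis from 0) of each gene in the dark, middle and light tertile of GC B-like cells, 1 line per mouse. Ciita, Cd74, H2-Eb1, H2-DMa and H2-DMb2 rose on average from dark to light, whereas H2-Ob was lowest in the middle tertile.

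Genes known to act upstream of Ciita were mostly higher at the light end, and those for its partners on promoters were not. Of 12 upstream regulators tested, 9 were higher and 0 lower, among them Irf1 by 1.42 ± 0.10 and the kinase gene Jak1 by 0.58 ± 0.06. The list mixes activators and inhibitors. Socs1, an inhibitor of cytokine signalling, was also higher, by 0.42 ± 0.08, and the repressor gene Prdm1 was not called (0.63 ± 0.30). Of 15 interferon gamma response genes, 13 were higher and 0 lower, with Socs3, a feedback inhibitor of cytokine signalling, higher by 2.64 ± 0.29 and the GTPase gene Gbp2 by 1.96 ± 0.22. Their medians were 0.56 and 0.53, beside 0.01 over all genes tested. None of the 7 genes for the RFX, NF-Y and CREB proteins on class II promoters was higher, and 3 were lower. The 3, named after their values were seen, were Nfyb at −0.52 ± 0.09, Rfxap at −0.47 ± 0.10 and Nfyc at −0.37 ± 0.09. Of 10 immediate early and heat shock genes, 3 were higher and 6 lower, with Junb higher by 1.64 ± 0.07, Ier2 higher by 1.58 ± 0.11 and Hsp90aa1 lower at −0.56 ± 0.05.

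Mature B-like cells outside the germinal centre, which include memory-like cells, had higher CPM than GC B-like cells for every member. Summed B lineage markers were higher there too, at 7446 ± 523 against 4634 ± 564 CPM (SD, n = 5). Per UMI of the B cell gene Cd79a, the members differed in direction. Means of H2-Ab1, Cd74, Ciita, H2-DMa and H2-DMb1 were then lower outside the germinal centre, and those of the other members higher. Ranges over mice overlapped for every member except H2-Ab1, which was at 0.857 ± 0.063 against 1.23 ± 0.18. Cd74 was at 7.96 ± 0.41 against 8.98 ± 0.86 and H2-Oa at 0.112 ± 0.015 against 0.079 ± 0.012. H2-Aa was at 4790, 5261 and 4707 CPM in p19-/- mice and at 5440 and 5008 CPM in WT mice, against 2329, 2797 and 2480 CPM and 2811 and 2579 CPM in their GC B-like cells. Cd74 was at 23450 ± 1512 CPM outside and 14739 ± 952 CPM inside the germinal centre (SD, n = 5). In CPM, neither H2-Aa nor Cd74 overlapped between the classes.

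The H2-DO genes differed most. H2-Oa was at 307, 371 and 296 CPM in p19-/- mice and 376 and 290 CPM in WT mice, against 125, 143 and 103 CPM and 143 and 136 CPM in GC B-like cells, a difference of 1.49 ± 0.07 (2.82-fold, adjusted p = 1.79e-15, edgeR). H2-Ob was higher by 1.21 ± 0.06 (485 ± 40.6 against 233 ± 21.7 CPM, adjusted p = 7.23e-15, edgeR). Both chains of H2-DO thus changed more than any other member, and the beta chain of H2-A changed least.

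H2-Ab1 was higher by 0.48 ± 0.04 (2520 ± 80.1 against 2006 ± 86.8 CPM, adjusted p = 2.86e-10, edgeR). Between these extremes H2-Aa was higher by 1.11 ± 0.04, H2-DMb2 by 1.09 ± 0.05, H2-Eb1 by 1.01 ± 0.04, Cd74 by 0.82 ± 0.03, H2-DMa by 0.82 ± 0.06, Ciita by 0.77 ± 0.07 and H2-DMb1 by 0.77 ± 0.12. All 10 of 10 were higher, beside 28.4% of 8872 genes tested, with 57% called in either direction. Ciita was at 220 ± 20.8 CPM outside the germinal centre, close to the 213 ± 13.3 CPM of the light ends.

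Other class II and presentation genes were also higher outside the germinal centre. All 5 surface turnover and costimulation genes tested were higher, as were 4 of 5 antigen processing genes, with 1 lower, and 16 of 18 interferon gamma response genes, with 1 lower. Ctss, the endosomal protease that trims the invariant chain in B cells, was higher by 1.55 ± 0.07, and B2m, the light chain of class I, by 1.30 ± 0.05. The 7 promoter-binding RFX, NF-Y and CREB genes again included 0 higher and 3 lower. The known GC gene Gcsam, itself among the markers used to name GC B-like cells, was lower outside the germinal centre, at −4.43 ± 0.13.

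Class-switched cells served as the memory-like fraction. B cell receptor sequences of the same mouse gave 227 switched and 293 unswitched mature non-GC B-like cells, whose class II shares were 3.68% ± 0.196 and 3.91% ± 0.223 (SD, n = 5), and the ranges overlapped. H2-DMb1 alone was called, at 57.8, 41.3 and 46.5 CPM in switched cells of p19-/- mice and 39.8 and 65.4 CPM in those of WT mice, against 93.1, 88.3 and 82.3 CPM and 64.1 and 83.8 CPM in unswitched cells. It was lower in switched cells at −0.68 ± 0.19 (adjusted p = 0.0269, edgeR), lower in all 5 mice, beside 5.75% of 4224 genes lower and 11.4% called. That call did not hold with DESeq2 (adjusted p = 0.328), without a filter on low counts (0.131), or without p19-/- mouse 1 (0.0742), p19-/- mouse 2 (0.0544), p19-/- mouse 3 (0.114) or WT mouse 1 (0.0828). The other 9 genes ranged from −0.25 ± 0.12 for H2-Oa to 0.12 ± 0.11 for H2-DMa, with edgeR adjusted p from 0.19 to 0.958.

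In plasma cell-like cells the CPM of Ciita was low and that of H2-Ab1 was higher than in GC B-like cells. The other members differed in direction. Ciita was at 27.5, 22.2 and 11.1 CPM in p19-/- mice and 11.6 and 27.2 CPM in WT mice, where GC B-like cells had 157, 137 and 149 CPM and 141 and 128 CPM. The groups were far apart, and the difference was −2.71 ± 0.24, where Ciita passed the count filter only through GC B-like cells. H2-Ab1, in contrast, was higher, at 3609, 3038 and 3541 CPM in p19-/- mice and 3152 and 3255 CPM in WT mice against 2030, 2072 and 1956 CPM and 2092 and 1882 CPM in GC B-like cells.

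H2-Ab1 was higher in plasma cell-like cells by 0.80 ± 0.13 (adjusted p = 1.13e-05, edgeR) and Cd74 by 0.54 ± 0.15 (20644 ± 3736 against 14739 ± 952 CPM, adjusted p = 0.00315, edgeR). Per Cd79a UMI neither rise was seen, and the ranges overlapped. H2-Ab1 was then at 1.30 ± 0.73 against 1.23 ± 0.18 and Cd74 at 7.53 ± 2.81 against 8.98 ± 0.86 (SD, n = 5). H2-Aa, at 1623 to 3655 CPM, and H2-Eb1, at 1673 to 2546 CPM, overlapped their GC B-like ranges and were not called (−0.05 ± 0.17 and 0.01 ± 0.14). Of the peptide-loading genes 3 were lower, H2-Oa at −1.08 ± 0.21, H2-DMb2 at −0.83 ± 0.17 and H2-DMa at −0.75 ± 0.18. H2-Ob, at 111 to 291 CPM, was not called (0.01 ± 0.17, adjusted p = 0.969).

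H2-DMb1 was called higher by 0.71 ± 0.27 (adjusted p = 0.0326, edgeR), but it had 0 UMIs in p19-/- mouse 1, which allows up to 27.5 CPM, and 188 CPM in p19-/- mouse 2. The call was lost with DESeq2 (adjusted p = 0.675), with immunoglobulin genes kept (0.188), with a mitochondrial limit of 20% (0.0743), and without p19-/- mouse 2 (0.274), p19-/- mouse 3 (0.17), WT mouse 1 (0.0625) or WT mouse 2 (0.0726). That of Cd74 was lost with immunoglobulin genes kept (0.49, adjusted p = 0.0804). In all 3 genes were higher and 3 lower (H2-Oa, H2-DMb2 and H2-DMa), beside 20.8% higher and 22.6% lower of 8577 tested (43.4% called). Ciita was under the count filter within plasma cell-like cells and passed it only through GC B-like cells, so its call is not counted.

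Ciita was low relative to the classical genes in these cells. Per 1000 classical UMIs (H2-Aa, H2-Ab1, H2-Eb1 and Cd74) there were 0.722 ± 0.325 Ciita UMIs in plasma cell-like cells, against 6.63 ± 0.711 in GC B-like and 6.32 ± 0.863 in mature non-GC B-like cells (SD, n = 5). Single plasma cell-like cells varied widely. The median cell of each mouse had 122 to 280 classical UMIs per 10000 non-immunoglobulin UMIs, and the 10th percentile was 17.7 to 77.8. Numbers of plasma cell-like cells were small, 14 to 122 per mouse. The B cell gene Ms4a1 was at 215 CPM in them against 834 CPM in GC B-like cells. The 10 B lineage markers summed were not lower, at 4863 ± 1632 against 4634 ± 564 CPM (SD, n = 5). T cell RNA was present too, with a Cd3e UMI in 11.05% ± 3.81 of plasma cell-like and 1.64% ± 0.628 of GC B-like cells, and its part in these values was not tested.

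Known plasma cell genes were higher in these cells and costimulation genes lower. Prdm1 was higher by 5.59 ± 0.19 and Irf4 by 4.69 ± 0.21, but both are among the markers used to name this class. All 4 surface turnover and costimulation genes tested were lower. All 5 antigen processing genes were higher, among them the proteases Ctsb by 2.68 ± 0.16 and Ctsd by 2.76 ± 0.18 and the protease inhibitor Cst3 by 2.34 ± 0.16.

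Dendritic cell-like cells had the highest class II levels and macrophage or monocyte-like cells were many times lower. H2-Aa was at 12612 and 6441 CPM in dendritic cell-like cells of p19-/- mice 1 and 2 and at 10066 and 10575 CPM in those of WT mice. Macrophage or monocyte-like cells of the same mice had 873, 726, 812 and 458 CPM. The difference was 3.90 ± 0.20 (15.0-fold, adjusted p = 1.1e-07, edgeR, 4 mice).

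The 6 genes that also passed the count filter within macrophage or monocyte-like cells (H2-Aa, H2-Ab1, H2-Eb1, Cd74, H2-DMa and H2-DMb1) were higher in dendritic cell-like cells, beside 14.5% of 2361 genes tested (36.9% called). Ciita, H2-DMb2, H2-Oa and H2-Ob passed it only through the dendritic cell-like cells, where they are high, so their calls are not counted. Ciita differed by 3.69 ± 0.31 (290, 125, 363 and 396 CPM against 29.98, 23.4, 27.2 and 19.4 CPM) and H2-Eb1 by 4.19 ± 0.29. The H2-DO genes were near 0 in macrophage or monocyte-like cells of these 4 mice, H2-Oa with 6, 0, 3 and 2 UMIs against 41, 15, 76 and 31 in dendritic cell-like cells and H2-Ob with 2, 1, 2 and 1 against 16, 12, 20 and 16, so no fold is given. H2-DMa differed by 1.90 ± 0.22 (adjusted p = 3.47e-05, edgeR). Macrophage or monocyte-like cells joined a Vcam1 and C1qc cluster with Cd74 at 4570 ± 1939 CPM and a Lyz2 and Ace cluster with Cd74 at 2599 ± 1360 CPM (SD, n = 5), whose ranges overlapped. Of antigen processing genes, Ctsd, Ctsb and Lgmn, all endosomal proteases, were lower in dendritic cell-like cells, at −4.60 ± 0.31, −2.92 ± 0.21 and −2.81 ± 0.31. Cst3, which is also among the markers used to name dendritic cell-like cells, was higher by 1.58 ± 0.14. Cd79a, a B cell receptor chain, was at 15.4 CPM in dendritic cell-like and 18.5 CPM in macrophage or monocyte-like cells, against 1656 CPM in GC B-like cells.

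Which genes carry H2-DM and H2-DO also differed by class. The ratio of H2-DM to H2-DO UMIs (H2-DMa, H2-DMb1 and H2-DMb2 over H2-Oa and H2-Ob) was 2.57, 2.36 and 2.54 in GC B-like cells of p19-/- mice and 2.38 and 2.41 in those of WT mice. In mature non-GC B-like cells it was 1.82, 1.89 and 1.98 in p19-/- and 1.90 and 2.08 in WT mice, lower in all 5 mice. Mean log2 difference was −0.34 ± 0.11 (SD, n = 5, exact sign-flip p = 0.0625, two-sided, the smallest that 5 mice allow).

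Along the GC axis the ratio rose from 2.04 ± 0.129 in the dark to 2.74 ± 0.224 in the light ends, higher in 5 of 5 mice (log2 difference 0.42 ± 0.07, exact sign-flip p = 0.0625, the smallest possible). The mean of the dark ends lay within the range of the mature non-GC B-like mice. The ratio did not differ by genotype in GC B-like cells beyond the spread (exact permutation p = 0.6, smallest possible 0.2). Dendritic cell-like cells had 3.35 ± 0.752 (n = 4). Macrophage or monocyte-like cells had 11.4 to 33.0 in the 4 mice with any H2-DO UMI. Neither H2-DO gene had a UMI there in p19-/- mouse 3, and H2-Oa also had 0 in p19-/- mouse 2.

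UMIs assigned to the H2-DM beta chain genes were split differently in B cells and myeloid cells, within the doubt on shared reads stated above. For each H2-DMb1 UMI there were 8.35 to 12.9 H2-DMb2 UMIs in GC B-like cells and 11.7 to 19.1 in mature non-GC B-like cells. In dendritic cell-like cells there were 0.35 to 0.90, and in macrophage or monocyte-like cells 0.0870 to 0.429. H2-DMb1 alone was at 501 ± 41.6 CPM in dendritic cell-like (n = 4) and 43.1 ± 6.84 CPM in GC B-like cells (n = 5), with no overlap. H2-A chains shifted too, with 1.45 ± 0.418 H2-Ab1 UMIs per H2-Aa UMI in plasma cell-like, 0.775 ± 0.0585 in GC B-like, 0.502 ± 0.0398 in mature non-GC B-like and 0.490 ± 0.0187 in dendritic cell-like cells. These ratios compare classes, since capture may differ between genes, and the gene pair ratios were not tested.

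**Figure D3:**
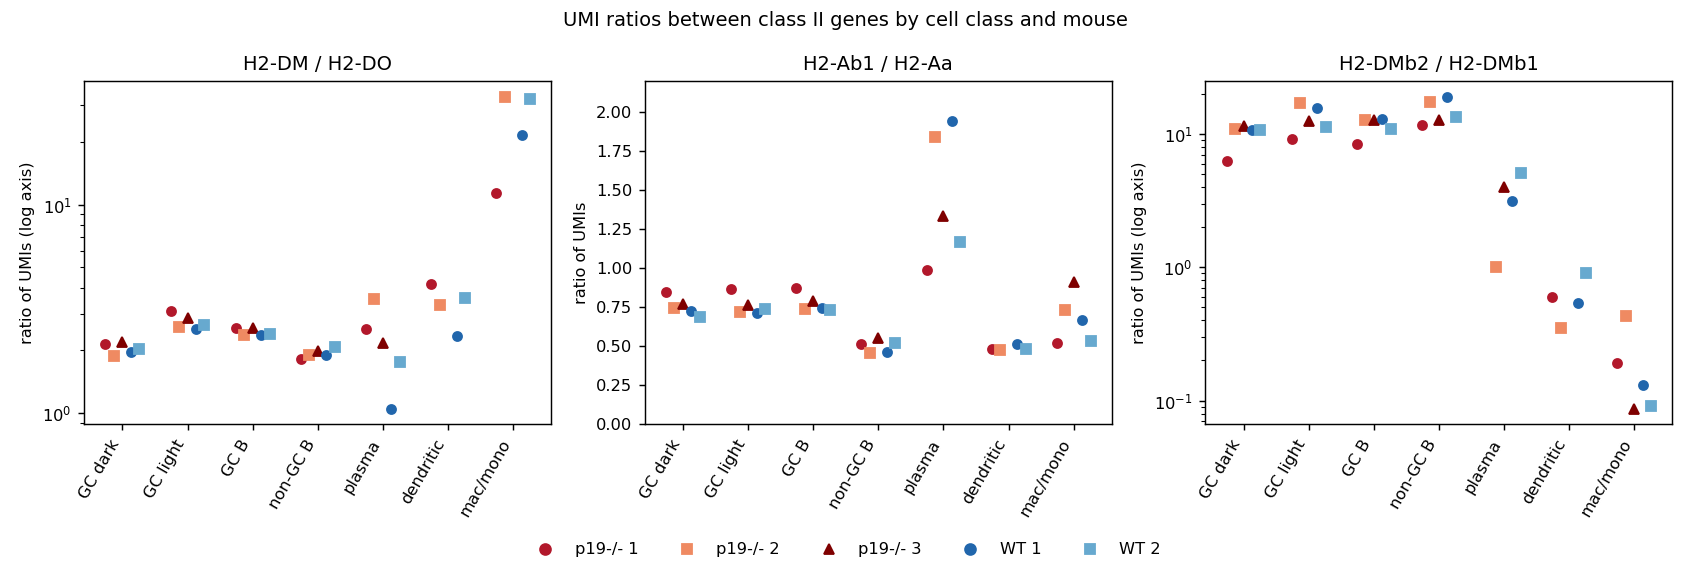
Ratios of UMIs between class II genes by cell class, 1 point per mouse (log axes for the left and right panels, an axis from 0 in the middle; mice with a 0 in a ratio left out). H2-DM over H2-DO was higher in GC B-like cells as a whole than in mature non-GC B-like cells. The mean of the GC dark ends lay within the mature non-GC B-like range. H2-Ab1 over H2-Aa was highest in plasma cell-like cells. H2-DMb2 over H2-DMb1 exceeded 6 in every GC and mature non-GC B-like value. It was 1.00 to 5.08 in plasma cell-like cells and stayed below 1 in every dendritic or macrophage value.

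T cells served to gauge the level of class II transcript in cells known to make little of it. Every member was lower in CD4 T-like than in GC B-like cells, from −3.23 ± 0.11 for H2-Oa to −6.62 ± 0.22 for H2-DMb2. All but Ciita were called lower, beside 38.1% lower and 79.7% called of 10208 genes (edgeR). Ciita passed the count filter only through GC B-like cells, so its call is not counted. Cd74 was at 796, 362 and 608 CPM in CD4 T-like cells of p19-/- mice and 586 and 425 CPM in those of WT mice. Per mouse, these were 2.44% to 5.84% of the GC B-like level. H2-Aa stood at 0.987% to 4.85% of the GC B-like level, and Ciita at 2.18% on average.

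A set of 10 B lineage markers, most of them low in CD4 T-like cells, served as a gauge of background. Cd22 was not low in any mouse, at 21.0% to 46.0% of the GC B-like level, so the set is an imperfect gauge. Their mean percentages of the GC B-like level had a median of 1.72%, with Cd79a at 1.44% and Ms4a1 at 1.80%. The median was 2.31% for H2-Aa, H2-Ab1, H2-Eb1 and Cd74 and 3.07% for all 10 members. H2-Oa, H2-DMa, H2-Ob and H2-DMb1 stood above most markers, at 12%, 11.3%, 10.7% and 7.03%, but Cd22 was at 32.6% and Pax5 at 6.68%. The value of H2-DMb1 rests on a few CPM a mouse, and its split from H2-DMb2 is uncertain. H2-DMb2 was at 1.19%, within the marker range.

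A small share of cells held much of this signal. The top 5% of CD4 T-like cells of each mouse held 49.7% to 57.2% of classical class II UMIs. In p19-/- mouse 1, 46 of 595 cells (7.73%) had at least 2 B lineage markers and held 54.2% of those UMIs, and in the other mice 0.265% to 3.16% of cells held 1.04% to 17.4%. Without such cells the median of the 4 classical genes fell to 1.76% and that of the members to 2.45%. The marker median fell to 0.797%, but the cells were removed by these same markers. Its fall was thus set by the choice of cells, and it is no background for the other 2 medians. A Cd74 UMI was found in 45.4% ± 4.04 of CD4 T-like cells and a Cd79a UMI in 4.55% ± 3.32, or in 33.3% and 2.87% at 2000 UMIs per cell. In CD8 T-like cells Ciita had 0 UMIs in all 5 mice, which allows up to 9.29 to 11.9 CPM per mouse.

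**Figure D4:**
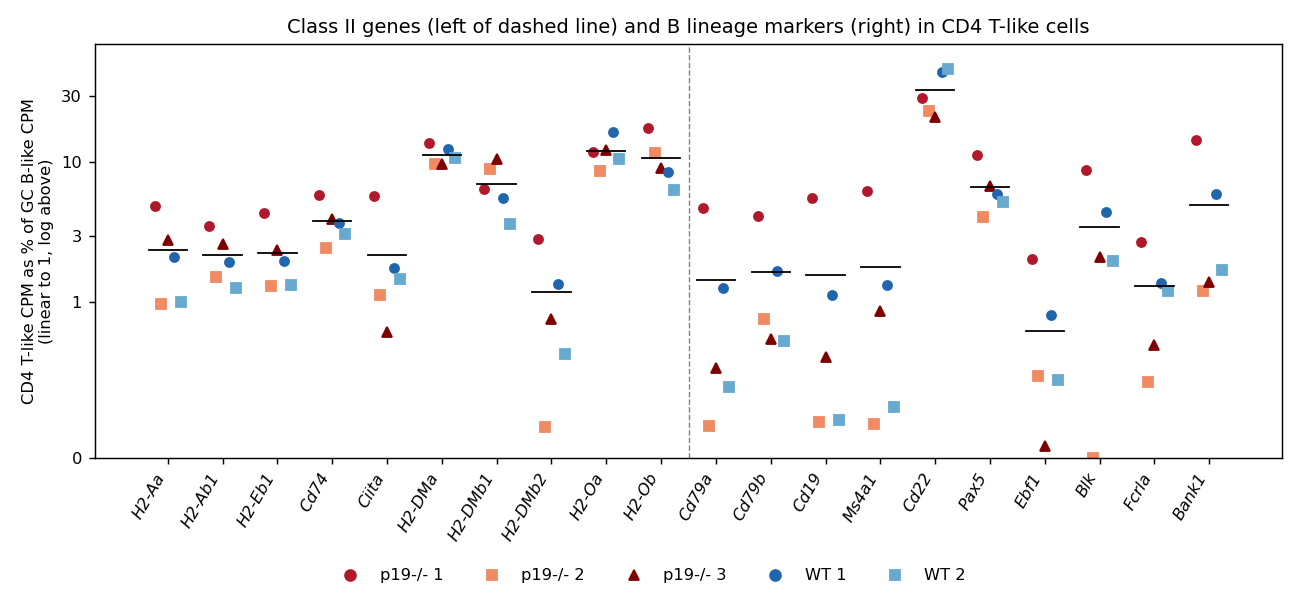
Level in CD4 T-like cells as a percentage of the level in GC B-like cells of the same mouse (linear to 1, log above), 1 point per mouse and the mean as a bar. The classical genes and Ciita lay near the B lineage markers, most of them highest in p19-/- mouse 1. H2-DMa, H2-DMb1, H2-Oa and H2-Ob had means between 7.03% and 12%, that of H2-DMb1 from a few CPM a mouse.

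IL-23 deficiency was not accompanied by a called difference of any class II gene in any class tested. In GC B-like cells Cd74 was at 13630, 14866 and 15486 CPM in p19-/- and 15805 and 13910 CPM in WT mice, H2-Aa values stood as given above, and both genotypes overlapped for each. Log2 fold changes (p19-/- over WT) ran from −0.21 ± 0.12 for H2-Oa (adjusted p = 0.618, edgeR) to 0.11 ± 0.10 for Ciita (adjusted p = 0.745), and 0 of 10 genes were called with edgeR or DESeq2, beside 0.251% of 10340 genes. None of the 10 had an unadjusted p under 0.05, where 971 genes did. In simulated counts for this comparison, 46.4% of 56 genes changed 1.5-fold and 69.9% of 73 genes changed 2-fold were called. The changed genes were among all 10340, so these shares are not specific to the 10 members. A missed threshold does not show equal levels, and the SE of the 10 values was 0.08 to 0.15.

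Mature non-GC B-like cells gave the same picture, with 0 of 10 called beside 0.0696% of 7181 genes. Cd74 stood at −0.15 ± 0.07 (p19-/- over WT) and did not pass adjustment (unadjusted p = 0.0423, adjusted p = 0.85, edgeR). It was at 22100, 21538 and 24257 CPM in p19-/- and 24717 and 24637 CPM in WT mice. Here the groups did not overlap, though by little. The call count became 1, Cd74 (−0.20 ± 0.05, adjusted p = 0.0299), when replicate numbers entered as a block, which also raised all calls from 5 to 50.

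In plasma cell-like cells 0 of 9 genes tested were called (beside 0.0801% of 3746 genes, none of the 9 with an unadjusted p under 0.05), with values from −0.55 ± 0.48 for H2-Oa to 0.51 ± 0.37 for H2-DMa. In macrophage or monocyte-like cells 0 of 6 tested were called (0% of 4781 genes, 316 of them with an unadjusted p under 0.05, edgeR), the largest being H2-Eb1 at 0.64 ± 0.35. Ciita was under the count filter in both. Dendritic cell-like cells were not tested by genotype because p19-/- mouse 3 had 8 of them.

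CD4 T-like cells had 0 of 9 tested genes called, beside 0.669% of 10315 genes. Of the 9, 2 had an unadjusted p under 0.05, H2-Ab1 and H2-Ob. H2-DMb1 had the highest value, 0.98 ± 0.48, from 1.60 to 3.92 CPM a mouse. H2-Aa stood at 0.77 ± 0.44 (113, 27.6 and 69.4 CPM in p19-/- against 59.5 and 26.1 CPM in WT mice), H2-Ab1 at 0.73 ± 0.30, H2-Eb1 at 0.72 ± 0.35 and H2-Ob at 0.66 ± 0.24, with adjusted p of 0.596, 0.421, 0.532 and 0.361 (edgeR). These 4 were called without a filter on low counts and with replicate numbers as a block. The CPM of p19-/- mouse 1, which had the most T cells with B lineage markers, was highest for the 3 classical genes. Without that mouse they stood at 0.28, 0.42 and 0.23, and without T cells holding 2 or more B lineage markers at 0.62, 0.51 and 0.68, not called either.

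Some heat shock genes did differ by genotype in the same cells. In GC B-like cells 2 of 13 immediate early and heat shock genes were higher in p19-/- mice, Hspa8 by 0.82 ± 0.11 (adjusted p = 0.0156, edgeR) and Hsph1 by 1.31 ± 0.20 (adjusted p = 0.0309). Hspa8 was higher in mature non-GC B-like cells too, by 0.79 ± 0.13. In CD4 T-like cells 4 of 12 were higher, Hsph1, Hspb1, Hspa8 and Hsp90aa1. None of 18 interferon gamma response genes was called in GC B-like cells (median 0.25). The part of these genes in the class II values was not tested.

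No dependence of the zone and class differences on genotype was called for a member. No member was called in the genotype by zone interaction (0 of 10, beside 0.011% of 9126 genes, 338 with an unadjusted p under 0.05), where Ciita had −0.14 ± 0.14. None was called in the genotype by class interaction of mature non-GC and GC B-like cells (0 of 10, beside 0.0104% of 9632 genes, 408 with an unadjusted p under 0.05, edgeR), where Cd74 had −0.12 ± 0.06.

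**Figure D5:**
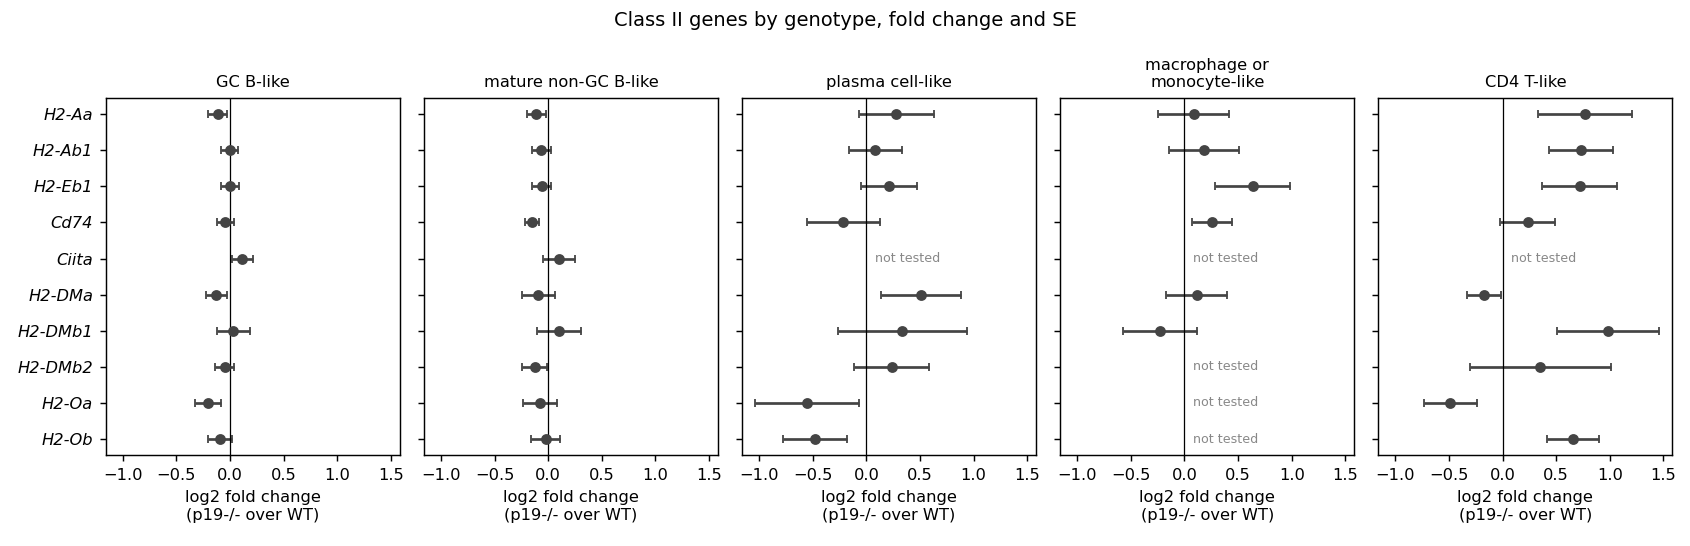
Log2 fold change of p19-/- over WT mice with its SE for each gene in 5 cell classes (3 against 2 mice, edgeR). Values in B cells lay within 0.21 of 0, those in plasma, macrophage or monocyte and CD4 T-like cells scattered more widely, and none was called at an adjusted p of 0.05.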

How the data were processed

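Single-cell 5' RNA and B cell receptor libraries of 3 p19-/- and 2 WT mice were analysed. Per the submitters' processing notes, the authors used Cell Ranger 3.0.2 and STAR with build mm10, and the deposited tables hold raw UMI counts per gene and cell. Deposited receptor tables give contigs with their UMI counts and isotype. Cells with over 10% mitochondrial UMIs (1907 barcodes) or under 200 genes were left out. Scrublet's automatic threshold marked 28 cells, under the expected number, so the 156 cells of highest score, 0.8% per 1000 cells, were removed. With scanpy 1.11.5, counts scaled to 10000 per cell, 2000 variable genes, 20 components and Leiden clustering (leidenalg 0.10.2, resolution 1, 21 clusters) were used, with the 10 genes, partner genes, immunoglobulin, T cell receptor and sex-linked genes held out. Clusters were named from marker lists; clusters of low UMI counts, mixed leading genes or under 3 markers were not compared. Since class names were rebuilt here, they are called "-like".

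Counts were summed per mouse and class without immunoglobulin genes. CPM is UMIs per 1000000 of these sums. edgeR 4.0.16 (TMM, quasi-likelihood test, expression filter, Benjamini-Hochberg adjustment over all genes, threshold 0.05) tested genotype on 3 against 2 mice and classes or zones with mouse as a block; zone score genes were left out of the zone test. It was tested on simulated data. Each mouse is 1 replicate with no stated batch or day. SDs are over mice and SEs are those of the fits to per-mouse sums. Upper limits for 0 UMIs cover counting error only. DESeq2 1.42.0, other size factors, no filter, sex as a covariate, immunoglobulin genes kept, doublets kept, a mitochondrial limit of 20%, resolution 1.5, and leaving out each mouse were alternatives. Replicate numbers 1 and 2 did not pair the mice (correlation of deviations −0.0996 and −0.0563).

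All 10 members are named in each comparison, and from other fixed lists at most 8 genes past the threshold by smallest p, unless stated; some of these genes are not reported here. The members, lists and tests were chosen with earlier results of these data known. Genes whose values most resemble the classical genes were found by Pearson correlation over mouse by class sums of at least 10 cells.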

Additional observations from a re-analysis of the deposited data

How the results depend on the processing

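Of 610 alternative values for member differences called in the report, 596 kept their direction and call and 14 were no longer called (H2-DMb1 in switched and in plasma cell-like cells and Cd74 in plasma cell-like cells), and none changed sign. Of 1025 alternative values for members not called, 11 became called and 1 changed sign with a call, H2-Ob at the light end at −0.55 when the dark zone score lost its cell cycle genes. Uncalled values also changed sign, such as H2-DMb2 by genotype in CD4 T-like cells, from 0.35 to −0.72 without p19-/- mouse 1 and −0.70 without T cells holding B lineage markers, and Cd74 there, from 0.23 to −0.06 and −0.04. The cause was not tested. The 610 values include calls not counted above, among them those of Ciita in plasma cell-like and CD4 T-like cells. All 10 members stayed called in the mature non-GC B-like contrast under every alternative run. So did all but Ciita, which is not counted, in the CD4 T-like contrast and the 6 counted in the dendritic cell-like contrast. Between zones 9 to 10 were called, and in plasma cell-like cells 5 to 7 with Ciita included. Members called by genotype rose from 0 to 4 in CD4 T-like cells without a filter on low counts and to 4 with replicate numbers as a block, and to 1 in mature non-GC B-like cells with that block; it changed no other call. Since only 2 replicate numbers are shared and they did not pair the mice, the block is given for completeness. In switched cells the 1 member called became 0 with DESeq2 and 0 without a filter, and 0 to 1 when 1 mouse was left out. The share of GC B-like cells with a Ciita UMI was 73.8% at full depth and 27.2% at 2000 UMIs per cell, an alternative chosen after seeing the data, so depth limits it. Leaving out mice or changing cell filters kept the mean CD4 T-like percentage of H2-Aa, H2-Ab1, H2-Eb1 and Cd74 (2.64%) between 2.14% and 2.95% and the H2-DM over H2-DO difference (−0.34) between −0.38 and −0.25, both also alternatives added later. Calls over all genes by genotype varied widely, from 26 to between 2 and 258 in GC B-like, from 5 to between 3 and 50 in mature non-GC B-like, from 3 to between 0 and 33 in plasma cell-like, from 0 to between 0 and 65 in macrophage or monocyte-like and from 69 to between 17 and 349 in CD4 T-like cells. Between classes, the calls moved from 3431 to 972 with cells thinned and to 1990 with DESeq2 between zones, from 482 to 173 with DESeq2, to 312 with immunoglobulin genes kept and to 225 without WT mouse 1 in switched cells, and from 872 to 1509 without a filter and to 569 without WT mouse 1 in dendritic cell-like cells. Leaving out a WT mouse assumes that the lone WT mouse varies like the p19-/- mice. Dendritic cell-like cells could not be tested by genotype.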

Other observations

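Among CD4 T-like cells, Cd74 was highest in the Treg-like cells, which had leading regulatory T cell markers. It was at 1878, 1129 and 1387 CPM in p19-/- mice and 1178 and 1191 CPM in WT mice, against 184 to 569 CPM in Tfh-like and 111 to 548 CPM in other CD4 T-like cells, with no overlap. Summed B lineage markers were at 115 ± 117, 95.3 ± 37.8 and 89.6 ± 69.4 CPM (SD, n = 5) in these 3 groups. H2-Aa, at 41.5 to 207 CPM in Treg-like cells, overlapped the 11.3 to 92.2 CPM of other CD4 T-like cells. This comparison was chosen after the values were seen and was not tested.

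The 394 B cells that no marker list named, led by Sox4 and Pcp4, came mostly from p19-/- mouse 1 (300 cells). In the 4 mice with at least 10 of them, H2-Ab1 was at 873 to 1296 CPM, below the 1882 to 2092 CPM of GC B-like cells, while H2-Aa, at 1791 to 3643 CPM, overlapped its 2329 to 2811 CPM. Ciita was at 32.5 to 86.1 CPM in them and 128 to 157 CPM in GC B-like cells, which is 2.91 ± 1.27 against 6.63 ± 0.71 Ciita UMIs per 1000 classical UMIs (SD, n = 4 and 5). Outside p19-/- mouse 1, these ratios rest on 1 to 6 Ciita UMIs a mouse. No test was made, since most of these cells came from 1 mouse. The 259 cells of a cluster led by hemoglobin genes held Cd74 at 1939 to 10792 CPM, with 12 macrophage or monocyte markers detected among them.

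Outside the family, the genes whose level most resembled the mean of H2-Aa, H2-Ab1, H2-Eb1 and Cd74 over 38 mouse by class sums were Clic4 (Pearson r = 0.949), the protease gene Ctsh (0.920), Ly86 (0.892), Rnase6 (0.880), the protease gene Napsa (0.870), H2-Eb2 (0.869), Cd40 (0.866), Mef2c (0.862), Unc93b1 (0.859) and Tcf4 (0.850). They were taken from 8057 genes, and the sums share libraries and class differences, so r is a description. Within the family Ciita had 0.920, H2-DMb2 0.937 and H2-DMa 0.919, whereas H2-Ob (0.733), H2-DMb1 (0.724) and H2-Oa (0.656) followed the classical genes less closely.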
